A study of Mus musculus with 10 samples.

Results

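The detoxification enzymes Cyp2c55, Ugt2b38, Gstm1 and Sult1e1 were followed in mouse liver in which nuclear SREBP activity had been raised or lowered. They are 4 of 5928 genes that a tested probe set of the Affymetrix U74Cv2 array names alone. All probe sets that the platform annotation assigns to them were taken, 7 of 11868, where a probe set is a group of short oligonucleotides that reports 1 transcript or a few related ones: 1 for Cyp2c55, 2 for Ugt2b38, 3 for Gstm1 and 1 for Sult1e1. The genes were chosen by measured values of these same arrays. For Cyp2c55, Ugt2b38 and Gstm1 these were differences between SREBP transgenic and wild-type pools in earlier results, while the values that chose Sult1e1 are not recorded. Differences among the SREBP wild type, TgSREBP-1a and TgSREBP-2 pools are therefore given as descriptions with no test. The Scap comparison is tested on the assumption that it had no part in the choice, which is not known, least of all for Sult1e1, and its p-values hold only under that assumption.

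Sterol regulatory element-binding proteins (SREBPs) are transcription factors that switch on cholesterol and fatty acid synthesis, and SCAP is the escort protein without which they stay in their membrane-bound, inactive form. The question of the study was which liver genes respond to them. TgSREBP-1a and TgSREBP-2 mice carried a transgene for the transcriptionally active nuclear form of human SREBP-1a or SREBP-2. They and their male wild-type littermates, called SREBP wild type here, were 12 to 16 weeks old. For the last 2 weeks all had eaten a diet of high protein/low carbohydrate content, which drives the phosphoenolpyruvate carboxykinase promoter that these lines are known to use. Scap-/- mice carried MX1-Cre, which deletes Scap in liver after interferon induction and is known to act in other interferon-responsive cells as well. They and the corresponding wild type, called Scap wild type, were male, 10 to 12 weeks old, ate Teklad chow and had all received 4 injections of polyinosinic-polycytidylic acid, with livers taken 14 days after the last. Each of the 5 groups was a single pool of RNA from 5 livers, hybridised to 2 arrays. No tested probe set names Scap, Srebf1 or Srebf2, so the genotypes could not be checked on the altered genes. Every error given comes from the spread between hybridisations of a pool (n = 2) and holds no variation between mice. The fit pools that spread over the 5 groups and draws it toward that of all probe sets. A probe set thus has the same SE in every comparison, whichever pools are compared. In whole liver RNA, fewer cells of a type and less RNA per cell cannot be told apart.

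The liver clears drugs, steroids and bile pigments in steps. Cytochromes P450, among them CYP2C enzymes such as Cyp2c55, first oxidise the compound. Transferases then attach a water-soluble group: UDP-glucuronosyltransferases such as Ugt2b38 add glucuronic acid, glutathione transferases such as Gstm1 add glutathione, and sulfotransferases such as Sult1e1, which acts on oestrogens, add sulfate. Genes of these families lie in clusters of close relatives, and many are induced in liver through the xenobiotic receptors CAR and PXR.

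The promoters of the 4 genes are shown because both transgenes encode DNA-binding factors with a known recognition sequence. RefSeq (GRCm38.p6) gave a promoter for 4 of the 4 genes. Each line holds the 250 bases before the start, read 5′ to 3′ on the gene's own strand, and capitals mark matches to the motifs described after them.
Cyp2c55, chr19:39006769-39007018, plus strand: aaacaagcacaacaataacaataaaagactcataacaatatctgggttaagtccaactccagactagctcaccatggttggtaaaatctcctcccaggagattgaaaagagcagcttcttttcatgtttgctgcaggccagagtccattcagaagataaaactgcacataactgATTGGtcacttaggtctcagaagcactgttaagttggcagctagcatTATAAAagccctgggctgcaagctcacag
Ugt2b38, chr5:87424204-87424453, minus strand: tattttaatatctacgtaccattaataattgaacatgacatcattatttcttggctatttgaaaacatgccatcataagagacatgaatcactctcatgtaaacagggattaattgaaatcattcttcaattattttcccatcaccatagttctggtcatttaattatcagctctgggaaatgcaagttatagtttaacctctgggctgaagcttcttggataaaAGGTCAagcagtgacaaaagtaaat
Gstm1, chr3:108017974-108018223, minus strand: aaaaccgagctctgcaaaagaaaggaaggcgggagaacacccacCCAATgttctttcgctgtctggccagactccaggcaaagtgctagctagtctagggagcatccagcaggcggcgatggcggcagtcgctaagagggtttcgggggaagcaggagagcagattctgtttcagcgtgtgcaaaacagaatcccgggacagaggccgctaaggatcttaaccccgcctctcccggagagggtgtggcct
Sult1e1, chr5:87591612-87591861, minus strand: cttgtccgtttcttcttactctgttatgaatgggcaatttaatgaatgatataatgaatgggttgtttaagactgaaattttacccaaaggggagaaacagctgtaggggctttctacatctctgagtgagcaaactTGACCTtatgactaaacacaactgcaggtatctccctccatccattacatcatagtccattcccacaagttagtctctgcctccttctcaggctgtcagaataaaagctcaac

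Both strands of each window were searched for 6 motifs. The sterol regulatory element TCACNCCAC, which occurs in 1.05% of 32851 RefSeq promoter windows of the same length, was in none of the windows. The palindromic E-box CACGTG (6.02% of windows) and the antioxidant response element core TGACNNNGC (10.2%) were not there either. A CCAAT box (33.8% of windows) lay 76 bases before the start of Cyp2c55, where it reads on the opposite strand, and 206 bases before that of Gstm1. Cyp2c55 also had a TATAAA box (12.4%) at 29 bases. The nuclear receptor motif AGGTCA (14%) was found 25 bases before Ugt2b38 and, on the opposite strand, 113 bases before Sult1e1. RefSeq lists a further Gstm1 start, with TATAAA at 30 bases and CCAAT boxes on the opposite strand at 97 and 91. The motifs do not overlap in these windows. Matches of this kind describe letters and are not binding sites, and their absence from 250 bases says nothing of SREBP binding elsewhere.

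The array medians lay between 4.69 and 4.77 on the log2 scale, and duplicate arrays correlated at 0.992 to 0.995 across probe sets. Differences in log2 level had a standard error of 0.114 at the median probe set. Of 22 hepatocyte markers 5 were measured (Ahsg, Apoh, Fga, Hpx and Serpina1a), and none was called in any of the 4 comparisons. In TgSREBP-1a they differed by -1.04 (Fga, limma adjusted p = 0.0665), -0.34 (Serpina1a), 0.28 (Apoh), 0.03 (Ahsg) and -0.01 (Hpx). Ahsg and Serpina1a had low mean levels, 2.86 and 3.43 on the log2 scale, against 8.11 to 10.6 for the others. Transcripts of other cells differed between the groups. The linear signal summed over 6 measured of 12 pancreatic acinar markers was 885 to 1384 in SREBP wild type, 145 to 153 in TgSREBP-1a, 1682 to 2112 in TgSREBP-2, 140 to 153 in Scap-/- and 467 to 479 in Scap wild type. The 6 did not differ alike. In TgSREBP-1a Cpa1 (-4.39), Gp2 (-1.48) and Cuzd1 (-0.66) were called, and Cela2a (-0.23), Cpb1 (-0.21) and Amy2a5 (-0.10) were not. In Scap-/- Cpa1 (-2.86) and Gp2 (-1.32) were called and the others were not. In TgSREBP-2 Gp2 (1.08) and Cuzd1 (1.12) were called and the others were not. For the 2 measured of 10 macrophage markers, Laptm5 and Vsig4, the summed signal was 471 to 625 in SREBP wild type, 1106 to 1179 in TgSREBP-1a, 788 to 861 in TgSREBP-2, 655 to 878 in Scap-/- and 699 to 790 in Scap wild type. The signal of 18S ribosomal RNA, a control of the array, was 7.19 to 8.03 on the replicate 1 arrays and 8.21 to 9.88 on the replicate 2 arrays. Of the bile duct markers, Epcam was lower in TgSREBP-1a at 1 of its 3 probe sets, and of the endothelial markers none was called. The part of these in the results below was not tested. The files do not say which signals exceeded background. For Cyp2c55, Ugt2b38 and Sult1e1, whose levels were low in at least 1 pool, a log2 difference is one between signals, and the fold between transcripts is not known from it.

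**Figure D1:**
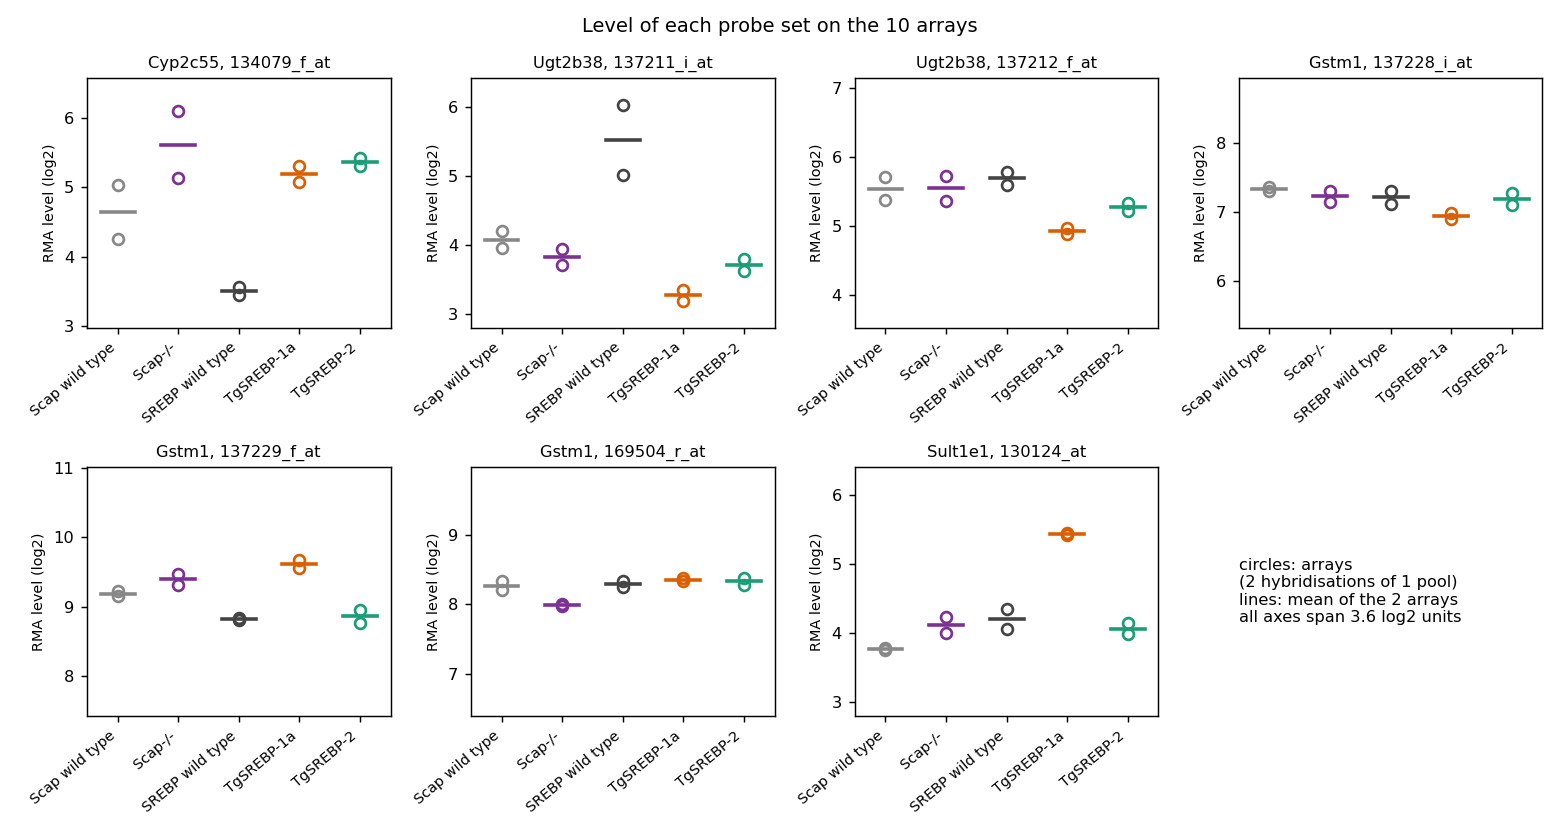
Level of the 7 probe sets (RMA, log2) on each of the 10 arrays, with circles for the 2 hybridisations of each pool and lines for their mean. SREBP wild type is lowest for Cyp2c55 and highest for Ugt2b38 at 137211_i_at, TgSREBP-1a stands above the other groups for Sult1e1, and the 3 Gstm1 panels differ in shape.

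Cyp2c55, the P450 of the set, was higher in both transgenic pools than in SREBP wild type. Its single probe set, 134079_f_at, carries the suffix that Affymetrix gave to probes shared within a gene family, so that other Cyp2c transcripts may contribute. The level was 3.45 and 3.56 on the SREBP wild type arrays, 5.30 and 5.08 in TgSREBP-1a, and 5.31 and 5.42 in TgSREBP-2 (log2). The transgenic arrays all lay above the wild-type arrays. The log2 difference from wild type was 1.68 (SE 0.282) in TgSREBP-1a and 1.86 (SE 0.282) in TgSREBP-2, and these share the wild-type arrays. The transgenics differed from each other by -0.18 (SE 0.282). Duplicates differed by 0.11 in SREBP wild type, 0.23 in TgSREBP-1a and 0.11 in TgSREBP-2. The SE also holds the wider gaps of the Scap pools given below.

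On the Scap arrays Cyp2c55 stood at 6.10 and 5.13 without SCAP and at 5.03 and 4.25 in the wild type. The groups lay apart by little, and the duplicates of each pool were far from each other. They differed by 0.97 in Scap-/- and by 0.79 in Scap wild type, a gap exceeded by 0.11% and 0.472% of probe sets. The 18S signal of the same arrays was 7.88 and 9.44 in Scap-/- and 8.03 and 8.21 in Scap wild type, and its part was not tested. The log2 difference was 0.98 (95% interval 0.36 to 1.59), with a limma unadjusted p of 0.0052 and an adjusted p of 0.999. That interval and both p-values rest on the spread pooled over the 5 groups. Duplicates in SREBP wild type, TgSREBP-1a and TgSREBP-2 differed by only 0.11, 0.23 and 0.11. The interval and the unadjusted p therefore understate the spread within the Scap pools. The adjusted p ranged from 0.0853 to 0.9999 over the alternatives. The difference was 0.49 without Scap-/- replicate 1, 1.46 without Scap-/- replicate 2, 1.37 without Scap wild type replicate 1 and 0.58 without Scap wild type replicate 2. Loss of SCAP, which lowers nuclear SREBP, and the transgenes, which raise it, thus had estimates of the same sign, of which the first did not pass the test.

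Ordered by group mean, Cyp2c55 was highest in Scap-/- (5.62), followed by TgSREBP-2 (5.37), TgSREBP-1a (5.19), Scap wild type (4.64) and SREBP wild type (3.50). The range of Scap-/- overlapped those of TgSREBP-2 and TgSREBP-1a, and the ranges of TgSREBP-2 and TgSREBP-1a nearly met. TgSREBP-1a and Scap wild type also nearly met, at 5.08 and 5.03. SREBP wild type lay below all 8 other arrays, the lowest of which read 4.25. At 3.50 it exceeded 23.5% of probe sets. The wild types of the studies differed by 1.14 in mean level, with diet, age and injections differing between them, and these cannot be told apart.

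Ugt2b38, a glucuronosyltransferase, was lower in both transgenic pools, and its probe sets gave different sizes. At 137211_i_at, a set with fewer probes than the array's standard, SREBP wild type read 6.02 and 5.02, TgSREBP-1a 3.19 and 3.35, and TgSREBP-2 3.79 and 3.62 (log2). All 4 transgenic arrays lay below the wild-type arrays. The log2 difference from wild type was -2.25 (SE 0.245) in TgSREBP-1a and -1.81 (SE 0.245) in TgSREBP-2. The duplicates of SREBP wild type differed by 1.01, more than at all but 0.0337% of probe sets, on arrays whose 18S signal was 7.73 and 9.88. The part of the 18S signal was not tested. Over the alternatives the difference ranged from -2.75 to -1.74 in TgSREBP-1a and from -2.32 to -1.31 in TgSREBP-2, the ends being given by leaving out an SREBP wild type array.

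The Scap arrays read 3.95 and 3.71 in Scap-/- and 4.20 and 3.95 in Scap wild type at this probe set. The groups nearly met and differed by -0.25 (95% interval -0.79 to 0.29, limma adjusted p = 0.999). SREBP wild type stood above all 8 other arrays, of which the highest, 4.20, was a Scap wild type array. In group means the order was SREBP wild type (5.52), Scap wild type (4.08), Scap-/- (3.83), TgSREBP-2 (3.71) and TgSREBP-1a (3.27). Scap-/- and TgSREBP-2 overlapped. The wild types were 1.44 apart, and the conditions that differ between them cannot be told apart.

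The second Ugt2b38 probe set, 137212_f_at, has probes shared within the family and differed less. It read 5.78 and 5.60 in SREBP wild type, 4.97 and 4.89 in TgSREBP-1a, 5.23 and 5.33 in TgSREBP-2, 5.72 and 5.37 in Scap-/-, and 5.70 and 5.38 in Scap wild type. The transgenic arrays were again the low ones, while the 6 others overlapped. From SREBP wild type the log2 difference was -0.76 (SE 0.141) in TgSREBP-1a and -0.41 (SE 0.141) in TgSREBP-2. In the Scap comparison it was 0.01 (95% interval -0.30 to 0.31, limma adjusted p = 0.9997). The high level of the SREBP wild type pool at 137211_i_at was not seen here, where its mean of 5.69 was close to that of Scap wild type, 5.54. Over the 10 arrays, which are duplicates of 5 pools, the probe sets correlated at r = 0.751.

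Gstm1, a glutathione transferase, gave 3 different patterns. At 137229_f_at, whose probes are shared within the family, it was brightest in TgSREBP-1a. There the arrays read 9.67 and 9.56, against 8.80 and 8.83 in SREBP wild type and 8.96 and 8.76 in TgSREBP-2. The TgSREBP-1a arrays lay above those of every other group. The difference from wild type was 1.74-fold (log2 difference 0.80, SE 0.105) in TgSREBP-1a, and 0.04 on the log2 scale (SE 0.105) in TgSREBP-2. TgSREBP-1a exceeded TgSREBP-2 by 0.76 (SE 0.105). Scap-/- read 9.47 and 9.32 and Scap wild type 9.15 and 9.23, a difference of 0.20 (95% interval -0.03 to 0.43, limma adjusted p = 0.999).

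The other Gstm1 probe sets did not show that difference. The set 137228_i_at, by its suffix, has fewer probes than the array's standard. Its levels were 6.99 and 6.90 in TgSREBP-1a, 7.12 and 7.30 in SREBP wild type, and 7.10 and 7.27 in TgSREBP-2. TgSREBP-1a was there the lowest pool, with a log2 difference from wild type of -0.27 (SE 0.109), opposite in sign to 137229_f_at. Scap-/- (7.31 and 7.14) and Scap wild type (7.37 and 7.30) overlapped, with a difference of -0.10 (95% interval -0.34 to 0.13, limma adjusted p = 0.999). At 169504_r_at, for which probe selection rules had been relaxed, the SREBP wild type, TgSREBP-1a and TgSREBP-2 arrays all lay between 8.26 and 8.39. The lower pool at 169504_r_at was Scap-/-, with 8.0 and 7.98 against 8.33 and 8.21 in Scap wild type. That log2 difference of -0.28 (95% interval -0.49 to -0.07) had a limma unadjusted p of 0.0134 and an adjusted p of 0.999. Across the 10 arrays the pairs of Gstm1 probe sets correlated at r = -0.449, -0.296 and -0.284, all negative.

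Sult1e1, the oestrogen sulfotransferase, had its highest level with the SREBP-1a transgene. Probe set 130124_at read 5.45 and 5.42 in TgSREBP-1a, 4.06 and 4.35 in SREBP wild type, and 3.99 and 4.14 in TgSREBP-2. TgSREBP-1a lay above all other arrays, while SREBP wild type and TgSREBP-2 overlapped. The log2 difference from wild type was 1.23 (SE 0.122) in TgSREBP-1a and -0.14 (SE 0.122) in TgSREBP-2, and the transgenics were 1.37 apart (SE 0.122). The TgSREBP-1a duplicates differed by 0.03. Over the alternatives the difference from wild type was between 1.08 and 1.37 in TgSREBP-1a and between -0.29 and 0.00 in TgSREBP-2.

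In the Scap pools Sult1e1 read 4.0 and 4.24 without SCAP and 3.79 and 3.76 with it. The groups did not overlap, and the log2 difference of 0.35 (95% interval 0.08 to 0.62) had a limma unadjusted p of 0.0159 and an adjusted p of 0.999. The order of the means was TgSREBP-1a (5.43), SREBP wild type (4.21), Scap-/- (4.12), TgSREBP-2 (4.06) and Scap wild type (3.77). SREBP wild type, Scap-/- and TgSREBP-2 overlapped with each other.

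**Figure D2:**
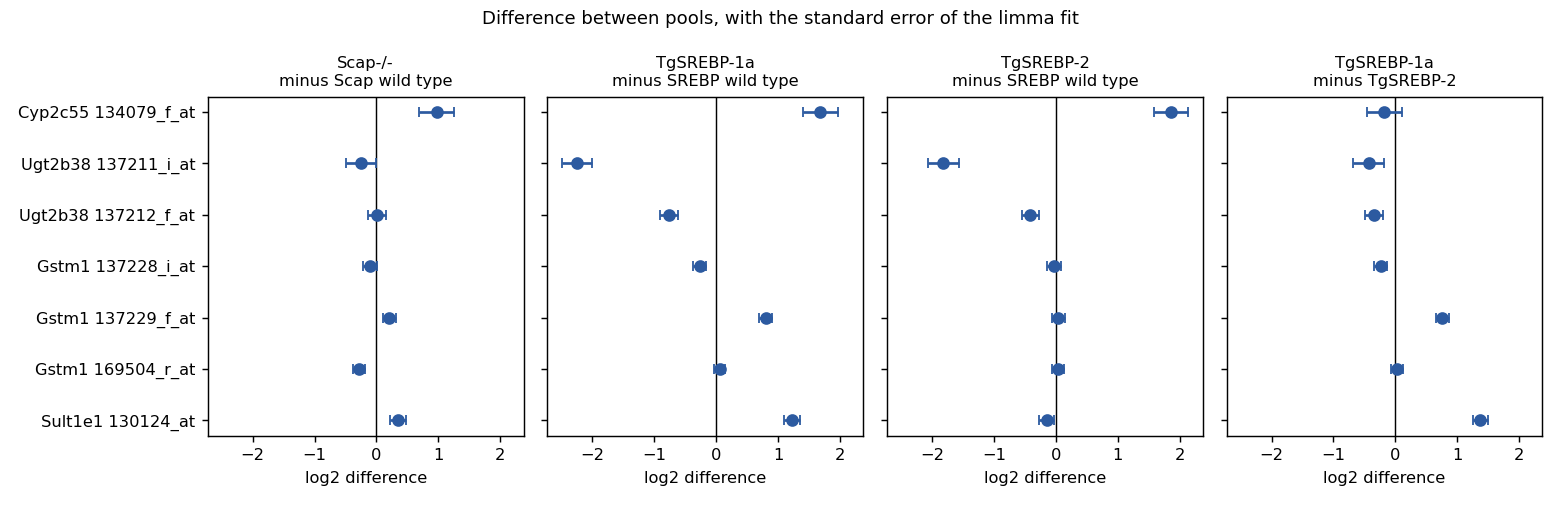
Log2 difference between pools for the 7 probe sets in the 4 comparisons, with bars for the standard error of the limma fit. Cyp2c55 lies at 1.68 and 1.86 in the transgenic comparisons and Ugt2b38 137211_i_at at -2.25 and -1.81, while Sult1e1 and Gstm1 137229_f_at lie at 1.23 and 0.80 in TgSREBP-1a and at -0.14 and 0.04 in TgSREBP-2.

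Set side by side, the probe sets that differed most gave 2 patterns. Cyp2c55 was higher and Ugt2b38 lower than SREBP wild type in both TgSREBP-1a and TgSREBP-2. The 2 transgenic differences share that wild-type pool. At Cyp2c55 and Ugt2b38 137211_i_at this pool stood apart from all 8 other arrays, those of Scap wild type included. Sult1e1 and Gstm1 137229_f_at were higher in TgSREBP-1a than in both SREBP wild type and TgSREBP-2. An adjusted limma p under 0.05 with at least a 1.5-fold difference was reached by 5 of the 7 in TgSREBP-1a (1.04% of all probe sets), by 2 of the 7 in TgSREBP-2 (0.118%) and by 2 of the 7 between the transgenics (0.514%). The arrays did not overlap at 6, 3 and 6 of the 7, against 39.4%, 35% and 37% of all probe sets. Those counts restate the choice of the genes and support nothing. In the Scap comparison, which is assumed and not known to have had no part in the choice, it was reached by 0 of the 7 (0.0843% of all probe sets), with 3 of the 7 at an unadjusted limma p under 0.05 (3.8%). The arrays of Scap-/- and Scap wild type lay apart at 5 of the 7 (29.7% of all probe sets). The median difference of the 7 there was 0.01, against 0.00 over all probe sets.

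Relatives on the array were few. Besides the 4 genes, the Cyp2c, Ugt2b, Gstm and Sult1 subfamilies had Cyp2c23, Gstm2 and Gstm5. Only tested probe sets with 1 gene name were counted. Cyp2c23, an arachidonic acid epoxygenase, had the opposite sign to Cyp2c55, at 137246_f_at, whose suffix also marks probes shared within a family. It read 8.79 and 8.38 in SREBP wild type, 7.91 and 7.73 in TgSREBP-1a and 8.24 and 8.14 in TgSREBP-2. The decrease in TgSREBP-1a was 1.70-fold (log2 difference -0.76, SE 0.133, limma adjusted p = 0.0182), while the difference in TgSREBP-2 was -0.39 (adjusted p = 0.622). The call was lost without SREBP wild type replicate 1 (-0.56, adjusted p = 0.109), TgSREBP-1a replicate 1 (-0.85, 0.0864) or TgSREBP-1a replicate 2 (-0.68, 0.173). Gstm2, the gene next to Gstm1, differed by 0.03 in TgSREBP-1a and -0.09 in TgSREBP-2. The 3 Gstm5 probe sets lay between -0.11 and 0.12 in the same comparisons, at low levels of 3.08 to 3.87.

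By position, Ugt2b38 and Sult1e1 are near each other on chromosome 5, Sult1e1 being the fifth protein-coding gene from Ugt2b38 in RefSeq order and on the same strand. Their differences in TgSREBP-1a had opposite signs (-2.25 at 137211_i_at and -0.76 at 137212_f_at for Ugt2b38, and 1.23 for Sult1e1). Ugt2b38 had no other measured gene among the 10 protein-coding neighbours on either side, and Sult1e1 had Cabs1 besides, with differences between -0.05 and 0.06. Around Cyp2c55 3 of 20 neighbours were measured and around Gstm1 6 of 20. None of their probe sets was called, with differences from -0.29 to 0.20 over the 4 comparisons.

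With these relatives, 64 probe sets of 51 genes on 7 detoxification lists were measured, the 4 genes left out. The lists were drawn up with earlier results of these data known, so their shares of calls are descriptions. In TgSREBP-1a 1 of the 64 was higher and 2 were lower, 4.69% in all. Over all probe sets 1.04% were called, 0.683% higher and 0.354% lower. An unadjusted p under 0.05 was found for 14 of the 64 there, against 9.4% of all probe sets. In the TgSREBP-2 comparison limma called 0, with 5 of the 64 at an unadjusted p under 0.05, against 6.34% of all probe sets. In the Scap comparison it called 0, with 7 of the 64 at an unadjusted p under 0.05, against 3.8% of all probe sets. Between the transgenics 1 was lower in TgSREBP-1a (1.56%, against 0.244% of all probe sets). There 8 of the 64 had an unadjusted p under 0.05, against 7.74% of all probe sets. The median difference of the 64 was -0.04 in TgSREBP-1a, -0.01 in TgSREBP-2 and -0.01 in Scap-/-, against -0.03, -0.01 and 0.00 over all probe sets. These medians lay within 0.02 of each other in these 3 comparisons.

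The oxidation and hydrolysis list had 28 probe sets of 22 genes, with 1 higher and 1 lower in TgSREBP-1a. The lower was Cyp2c23. The higher was Cyb5b, the cytochrome b5 of the outer mitochondrial membrane, at 168386_f_at, whose suffix marks probes shared within a family. It read 7.95 and 7.67 in TgSREBP-1a, 7.43 and 6.49 in TgSREBP-2 and 6.44 and 5.97 in SREBP wild type. The increase in TgSREBP-1a was 3.06-fold (log2 difference 1.61, SE 0.298, limma adjusted p = 0.0249), and TgSREBP-2 differed by 0.76 (adjusted p = 0.752). That call was lost without any single array of the pools compared, and the second probe set, 168535_i_at, differed by 0.26. In the Scap comparison Cyb5b had the most negative difference of the list (-1.10, adjusted p = 0.999), with 6.62 and 5.85 in Scap-/- and 7.46 and 7.20 in Scap wild type. Pon3, a lactonase carried on HDL, differed by 0.75 in TgSREBP-2 (adjusted p = 0.211) and 0.48 in TgSREBP-1a (adjusted p = 0.300). The most positive difference of the list in Scap-/- was that of the reductase Akr1b10, at 0.28 and not called.

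In the glutathione list, 8 probe sets of 6 genes, Nat8 was the called one. Nat8 is an N-acetyltransferase that finishes the cysteine conjugates made from glutathione adducts. Its level was 8.0 and 7.75 in TgSREBP-1a, 9.47 and 8.97 in SREBP wild type, 9.0 and 8.84 in TgSREBP-2, 9.77 and 9.31 in Scap-/- and 9.95 and 9.78 in Scap wild type. TgSREBP-1a lay below all other arrays. Nat8 fell 2.54-fold from SREBP wild type (log2 difference -1.34, SE 0.181, limma adjusted p = 0.0037) and was 2.06-fold lower than in TgSREBP-2 (-1.04, adjusted p = 0.0271). The first call was lost without TgSREBP-1a replicate 2 (-1.22, adjusted p = 0.0609), and the second without any single array of the 2 transgenic pools. The remaining members of the list lay between -0.15 (Nat8l) and 0.06 in TgSREBP-1a. Gstm1 137229_f_at stood at 0.80, and its difference from them was not tested. Lists were matched by gene name. A member such as Nat8l, or Sumf1 in the sulfation list, need not act in the step named.

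No member of the other lists was called in any comparison. Among 5 sulfation probe sets, Sult2a8, a sulfotransferase of liver, was the furthest from 0 in TgSREBP-1a, at -0.71 (adjusted p = 0.167), opposite in sign to Sult1e1. Sult2a8 differed by -0.46 in Scap-/- (adjusted p = 0.999) and -0.07 in TgSREBP-2. The 17 transporter probe sets ranged from -0.30 for Slc22a21 to 0.53 for the efflux pump Abcg2 in TgSREBP-1a (adjusted p = 0.345 for Abcg2). The 5 regulators measured were Ahr, Esr1, Foxa3, Nr1i2 and Rxra. Nr1i2, the xenobiotic receptor PXR, differed by 0.32 in TgSREBP-1a (adjusted p = 0.498) and 0.24 in TgSREBP-2, at a low level of 4.20 in SREBP wild type. Acsm5 was the 1 measured gene of the methylation, acetylation and glycine conjugation list, at 0.32 in TgSREBP-2. No glucuronidation gene other than Ugt2b38 was measured by a probe set with 1 gene name.

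**Figure D3:**
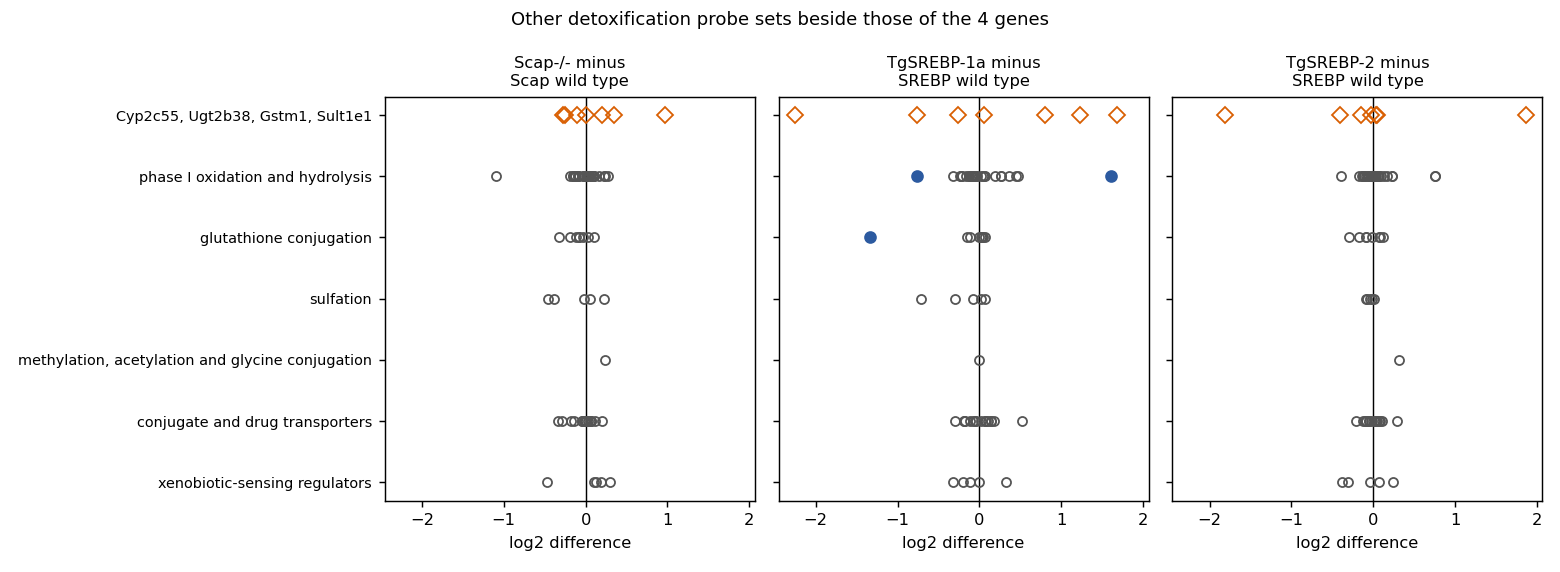
Log2 difference of 64 other detoxification probe sets, by list, beside the 7 probe sets of the 4 genes (diamonds), in the Scap-/-, TgSREBP-1a and TgSREBP-2 comparisons. Filled circles mark calls, which are Cyb5b, Cyp2c23 and Nat8 in TgSREBP-1a, and most circles lie within 0.5 of 0.

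For the 3 probe sets whose group means spanned at least 1, the nearest profiles were sought among 86 named probe sets of at least that span. The measure was Pearson r over the 10 arrays, which are duplicates of 5 pools, and it is a description. Nearest to Cyp2c55 were Entpd5 (r = 0.885), a nucleotidase of the endoplasmic reticulum, the biliverdin reductase Blvrb (0.848), Colec12 (0.795), Lgals3bp (0.793) and Kank2 (0.773). All 5 had their lowest mean in SREBP wild type, as Cyp2c55 did, for example 6.19 for Blvrb against 7.31 to 7.68 in the other groups. Nearest to Ugt2b38 137211_i_at were the fibrinogen chain gene Fga (0.875) and B3galt1 (0.777), followed at a distance by Slc9a4 (0.581), Fam47e (0.548) and Klb (0.544). Fga had its highest mean, 9.41, in SREBP wild type. Nearest to Sult1e1 were Plekhd1 (0.956), Hephl1 (0.954), Ppp1r3g (0.946), which encodes a glycogen-targeting subunit of protein phosphatase, the growth factor gene Nrg4 (0.944) and Fyb2 (0.930). Each of these had its highest mean in TgSREBP-1a, the widest being Plekhd1 with 7.92 against 3.38 to 3.56 in the other groups.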

How the data were processed

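Values on the log2 scale per probe set were deposited by the authors. Per the submitters' processing notes the method was RMA (version not given in the sources used here), in which background is removed, arrays are brought to a common distribution and each probe set is summarised, while the series' design text names Microarray Suite 5.0. Of 11934 probe sets, 66 controls were left out, and 7717 carry 1 gene name.

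A limma fit (version 3.58.1, R 4.3.3) held all 10 arrays in 5 groups, with 5 residual and 6.26 prior degrees of freedom. The two-sided p-values were adjusted by the Benjamini-Hochberg method over 11868 probe sets, and a call needed an adjusted p under 0.05 and at least 1.5-fold. The script was tested on simulated data of that size. The p-values measure only how hybridisations of a pool differ, and with 2 per pool precision is limited.

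The 4 genes and the gene lists were chosen with earlier results of these data known. Named are all their probe sets, measured subfamily relatives, called list members, the list members furthest from 0, measured neighbours and the 5 nearest profiles. Alternatives were another normalisation (quantile, median), a filter for bright probe sets, a robust variance trend, fits within each study, a replicate block, other fold floors, and leaving out single arrays.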

Additional observations from a re-analysis of the deposited data

How the results depend on the processing

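Of the alternatives, another normalisation or leaving out an array of the pools compared can move a difference of group means, and the others change only its test. Among the 7 probe sets, leaving out 1 array moved some differences by more than their SE. For Ugt2b38 137211_i_at (SE 0.245) that was from -2.25 to -1.74 or -2.75 in TgSREBP-1a and from -1.81 to -1.31 or -2.32 in TgSREBP-2. For Cyp2c55 in Scap-/- (SE 0.282) it was from 0.98 to 0.49 or 1.46. Sult1e1 (SE 0.122) moved from 1.23 to 1.08 or 1.37 in TgSREBP-1a and from -0.14 to -0.29 or 0.00 in TgSREBP-2. Ugt2b38 137212_f_at in Scap-/- (SE 0.141) moved from 0.01 to -0.17 or 0.18. Quantile normalisation gave 0.73 for Gstm1 137229_f_at in TgSREBP-1a. Comparisons among the SREBP wild type, TgSREBP-1a and TgSREBP-2 pools are treated as used in the choice of the genes. Passing or missing the call threshold in them therefore supports nothing. In the Scap comparison none of the 7 passed in any alternative. The threshold in TgSREBP-1a was missed by Cyp2c55 and Ugt2b38 137212_f_at without any single array of the pools compared, and by Gstm1 137229_f_at without TgSREBP-1a replicate 1. In TgSREBP-2 it was missed by Cyp2c55 with the robust variance trend and without any single array of the SREBP wild type, TgSREBP-1a and TgSREBP-2 pools, and by Ugt2b38 137211_i_at without either TgSREBP-2 array. Between the transgenics it was missed by Gstm1 137229_f_at without TgSREBP-1a replicate 1 or TgSREBP-2 replicate 2. Of differences near 0, the sign changed for Ugt2b38 137212_f_at in Scap-/- (-0.17 to 0.18), for Gstm1 (-0.12 to 0.14 over its 3 probe sets) and Sult1e1 (-0.29 to 0.00) in TgSREBP-2, and for Gstm1 169504_r_at between the transgenics (-0.03 to 0.08). Sult1e1 and Ugt2b38 137211_i_at were not among the brighter probe sets, so that filter gave them no value. Calls over all probe sets numbered 10 for Scap, 123 for TgSREBP-1a, 14 for TgSREBP-2 and 61 between the transgenics. With only the arrays of the study compared, Scap had 4, and the detoxification lists had 1 in TgSREBP-2 and 2 between the transgenics. With a replicate block the counts were 19, 186, 37 and 96, and those of the lists 1, 4, 1 and 2. Deviations of same-numbered arrays correlated at 0.20 to 0.33 in 7 of 10 pairs of groups and at -0.17 to -0.11 in the 3 others, each with TgSREBP-2. The labels do not say that a number marks a shared batch, and whether the arrays are paired is not settled. Within same-numbered arrays, Cyp2c55 was higher in Scap-/- by 1.07 and 0.88, and its limma adjusted p with the replicate block was 0.366, in a range of 0.0853 to 0.9999 over the alternatives. Crossing the TgSREBP-2 numbers, tried after seeing the data, gave 78 calls between the transgenics, 1 of them in the lists. A 2-fold floor left 59 in TgSREBP-1a and 31 between the transgenics. Leaving out each array gave 3 to 11, 40 to 134, 7 to 17 and 23 to 65 calls, the fewest without Scap wild type replicate 1, TgSREBP-1a replicate 1, TgSREBP-2 replicate 1 and TgSREBP-1a replicate 1. Those of the lists were 0 in Scap, 0 to 3 in TgSREBP-1a, with 0 without TgSREBP-1a replicate 2, 0 to 1 in TgSREBP-2 and 0 to 1 between the transgenics. The cause of these changes was not tested.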
